A study of Mus musculus with 14 samples.

Results

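The Zic, Gli and Sall genes encode transcription factors that bind DNA through zinc fingers of the C2H2 type, and they pattern the early embryo. Gli1, Gli2 and Gli3 are the end points of Hedgehog signalling, in which ligand binding to the receptor Ptch1 releases Smo and so turns Gli proteins from repressors into activators. The Zic proteins have zinc fingers related to those of Gli and act in neural tube and neural crest formation, and the Sall proteins, relatives of the fly gene spalt, act in limb, kidney and nervous system development. In blood-derived cells Sall1 is best known as a regulator of microglia, the brain macrophages that descend from yolk sac progenitors. Ezh2 is the enzyme of Polycomb repressive complex 2, which methylates histone H3 at lysine 27 at CpG-rich starts of silent developmental genes.

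Accessibility of chromatin around these genes was profiled by ATAC-seq, an assay based on cutting of open DNA by the transposase Tn5, in erythro-myeloid progenitors sorted from the yolk sac of C57BL/6 mouse embryos at E10.5, with 500 cells per reaction. The Tie2 KO group had 5 samples of genotype Ezh2fl/fl and Tie2-Cre Tg/+, a driver active in endothelium and the blood cells it gives rise to. The Vav KO group had 3 samples of Ezh2fl/fl and Vav-Cre Tg/+, a driver active in blood cells, and the Tie2 WT group had 3 samples of Ezh2fl/fl and Tie2-Cre +/+, that is, without the transgene. Another 3 Ezh2fl/fl samples without Cre, from the Vav line, appear in none of the lists used here, so the Vav KO samples were set against controls of the other line and line cannot be told apart from genotype there. All groups carried the floxed Ezh2 alleles, and whether each sample came from 1 embryo or from a pool is not stated by the labels.

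The genes were chosen by symbol: 9 genes, Zic1, Zic2, Zic4, Zic5, Gli1, Gli2, Gli3, Sall1 and Sall3, were looked up in 6 lists of regions that the authors called higher or lower in 3 comparisons of groups. These genes, and the gene lists further below, were chosen with earlier results of these data known. Their shares near a called region can therefore be raised by the choice and are no test. Of the 9 genes, 6 had a line and together held 13 of the 9954 regions of the lists. Zic1, Zic4 and Zic5 had no line in any list, which does not show that their chromatin was alike between groups, because the lists hold only called regions at a gene start or up to 4999 bp upstream of one. There are no values per sample in the lists, so each region comes with the fold change and adjusted p-value of the authors' deposited table and no replicate spread. More cells with an open site and a more open site in each cell cannot be told apart in such bulk samples.

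The starts of Gli2, Gli3 and Sall1 are shown first because called regions lie on them and the reference table of promoters holds them. Each line gives the 250 bases before a RefSeq gene start in GRCm38.p6, 5′ to 3′ on the strand of the gene, with CpG dinucleotides, the sequence feature of Polycomb-bound promoters, in capitals. The Gli2 stretch is chr1:119053620-119053869 on the minus strand, the Gli3 stretch is chr13:15463473-15463722 on the plus strand, and the Sall1 stretch is chr8:89044163-89044412 on the minus strand.
Gli2: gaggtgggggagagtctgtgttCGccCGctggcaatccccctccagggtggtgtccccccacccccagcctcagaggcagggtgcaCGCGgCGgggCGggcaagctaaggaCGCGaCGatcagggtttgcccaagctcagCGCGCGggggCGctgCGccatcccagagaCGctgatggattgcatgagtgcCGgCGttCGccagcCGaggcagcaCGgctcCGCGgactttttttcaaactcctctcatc
Gli3: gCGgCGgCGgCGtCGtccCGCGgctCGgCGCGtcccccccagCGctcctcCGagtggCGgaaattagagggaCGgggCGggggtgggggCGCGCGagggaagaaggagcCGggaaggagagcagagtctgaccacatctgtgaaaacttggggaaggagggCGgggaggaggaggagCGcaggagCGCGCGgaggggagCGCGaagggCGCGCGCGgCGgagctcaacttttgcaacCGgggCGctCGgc
Sall1: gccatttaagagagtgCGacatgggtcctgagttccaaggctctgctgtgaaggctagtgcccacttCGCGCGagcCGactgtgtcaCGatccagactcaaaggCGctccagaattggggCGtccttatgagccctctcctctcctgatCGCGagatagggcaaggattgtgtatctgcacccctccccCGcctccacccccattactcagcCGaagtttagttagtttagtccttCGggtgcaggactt
These stretches hold 22 CpG in Gli2, 34 in Gli3 and 13 in Sall1. Long runs without a CpG occur in each of these stretches.

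Deletion of Ezh2 with the endothelial driver was examined by setting Tie2 KO against Tie2 WT. Gli1, Gli3, Sall1 and Sall3 lay near higher regions, which is 4 of the 9 genes (44.4%), where 11.5% of all 21896 protein-coding genes did. None of the 9 lay near a lower region, and 2.51% of all protein-coding genes did. The 5 regions of these genes had log2 fold changes between 0.91 and 1.71 with a median of 1.14 by the authors' deposited table, close to the median of 1.02 over the 2959 higher regions of that list. None of the Zic genes and no region of Gli2 was in the list.

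Gli3, which acts mainly as a repressor when Hedgehog ligand is absent, had a higher region over its start at chr13:15462002-15464500. It reached from 1233 bp before the gene start to 1265 bp after it, with a log2 fold change of 1.11, or 2.16-fold, and an adjusted p of 7.25e-08 by the authors' deposited table, the smallest adjusted p among the 13 regions. The promoter stretch printed above for Gli3 lies wholly inside this region, after the start at 15463235 of the authors' annotation and before the RefSeq start at 15463723. Gli1, an activator whose own transcription is a standard readout of Hedgehog signalling, had a region over its start at chr10:127339502-127342300, most of it inside the gene, up to 2384 bp past the start. Its log2 fold change was 0.91, or 1.88-fold, with an adjusted p of 1.75e-06 by the authors' deposited table, so 37.0% of the higher regions of that list had a smaller one.

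Sall1 alone of the 9 genes had more than 1 region in a list. A region over its start, chr8:89040502-89044300, covered 3660 bp of the gene and 138 bp before it, with a log2 fold change of 1.14 and an adjusted p of 6.05e-06 by the authors' deposited table. A second region, chr8:89044402-89048000, began 239 bp upstream and reached back to 3838 bp before the start, with a log2 fold change of 1.51 and an adjusted p of 7.56e-07 by the authors' deposited table. The upstream region thus had the larger fold change, 2.85-fold, while the region over the start had 2.20-fold. The start of Sall1 lies inside the first of them, and a short gap upstream of it separates that region from the second. The printed Sall1 stretch lies across that gap. Sall3, a close relative of Sall1, had its region only upstream, at chr18:80988402-80990700, 1823 bp from the start as the authors' annotation sets it. With a log2 fold change of 1.71, or 3.27-fold, and an adjusted p of 7.69e-07 it had the largest fold change of the 13 regions by the authors' deposited table, and 93.6% of the higher regions of that list had a smaller one.

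**Figure D1:**
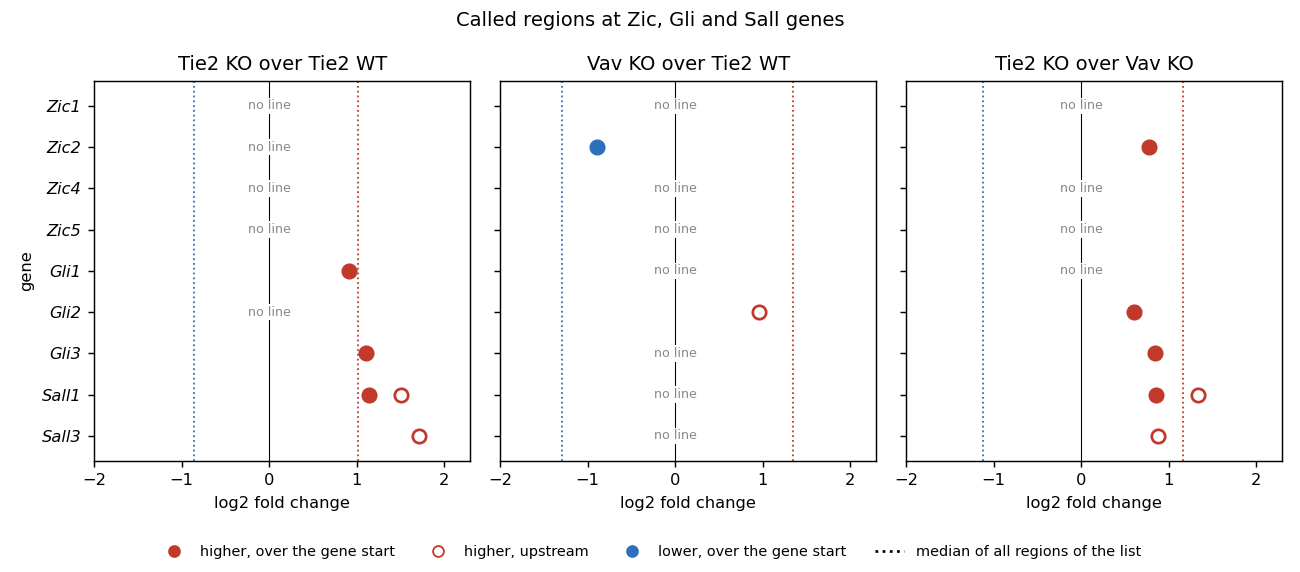
Log2 fold change from the authors' deposited table for each called region (points) at each of the 9 genes (rows) in the 3 comparisons (panels). Filled points are regions over the gene start, open points are regions upstream, red is higher, blue is lower, and dotted lines mark the median of all regions of each list. Gli and Sall genes hold the higher points of Tie2 KO over Tie2 WT, from 0.91 to 1.71, and the single lower point is Zic2 in Vav KO over Tie2 WT at -0.89.

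Deletion with the blood driver was examined by setting Vav KO against Tie2 WT. Here 1 of the 9 genes, Gli2, lay near a higher region (11.1%), where 5.29% of all protein-coding genes did, and 1 gene, Zic2, lay near a lower region (11.1%), where 2.59% of all protein-coding genes did. With 1 gene on each side these shares cannot be read against the background. The same Tie2 WT samples served both comparisons.

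Zic2, needed for forebrain patterning and neural tube closure, had its lower region over its start, at chr14:122475002-122476600. It reached from 382 bp before the start to 1216 bp inside the gene, with a log2 fold change of -0.89, or 0.54 of the Tie2 WT level, and an adjusted p of 9.95e-05 by the authors' deposited table. It was the only lower region among the 13. Gli2, the main activator of the Hedgehog pathway in embryos, had its region upstream, at chr1:119054402-119056000, 782 bp from the start in the authors' annotation. Its log2 fold change was 0.96, or 1.95-fold, with an adjusted p of 0.000227 by the authors' deposited table, below the median of 1.35 over the 1313 higher regions of that list. In the RefSeq table Gli2 extends to position 119054405 and would begin inside this region.

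Tie2 KO and Vav KO were also set against each other. Zic2, Gli2, Gli3, Sall1 and Sall3 lay near higher regions, 5 of the 9 genes (55.6%), where 11.1% of all protein-coding genes did. None lay near a lower region, and 6.35% of all protein-coding genes did. The 6 regions had log2 fold changes from 0.60 to 1.33 with a median of 0.85 by the authors' deposited table, under the median of 1.16 over the 2873 higher regions of that list. Gli1, called in Tie2 KO against Tie2 WT, had no line in this list.

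At Gli3 the region chr13:15461602-15464300 had a log2 fold change of 0.84 and an adjusted p of 5.35e-06 by the authors' deposited table. At Sall1 the region over the start, chr8:89040502-89044200, had 0.86 with an adjusted p of 0.00024, and the region upstream, chr8:89045302-89047500, had 1.33 with an adjusted p of 0.000611 by the authors' deposited table. At Sall3 the region chr18:80987802-80989900 had a log2 fold change of 0.88 and an adjusted p of 0.00217 by the authors' deposited table. These 4 regions overlap the regions called at the same genes in Tie2 KO over Tie2 WT. The overlap takes up 92% of the shorter region at Gli3, 100% at both Sall1 regions and 71.4% at Sall3. Side by side, the log2 fold changes of Tie2 KO over Tie2 WT and of Tie2 KO over Vav KO by the authors' deposited table were 1.11 and 0.84 at Gli3, 1.14 and 0.86 at the Sall1 start, 1.51 and 1.33 upstream of Sall1 and 1.71 and 0.88 at Sall3. The value against Tie2 WT was the larger of the pair at each. Both comparisons use the same Tie2 KO samples, so the second set of values is no independent repeat.

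Zic2 was called in this comparison in a wider region, chr14:122473802-122477100, which holds all of the region that was lower in Vav KO than in Tie2 WT. Its log2 fold change by the authors' deposited table was 0.78 for Tie2 KO over Vav KO, with an adjusted p of 0.000108. So the start of Zic2 was more accessible in Tie2 KO than in Vav KO and less accessible in Vav KO than in Tie2 WT, and it had no line in Tie2 KO over Tie2 WT. The Vav KO samples stand in both of these calls. At Gli2 the region called here, chr1:119052102-119053900, lay over the start with a log2 fold change of 0.60 and an adjusted p of 0.000971 by the authors' deposited table, just above the smallest absolute value in any list, 0.58. It does not overlap the upstream region that was higher in Vav KO than in Tie2 WT, since 501 bp lie between them, so the calls at Gli2 concern different stretches. The printed Gli2 stretch lies inside the region over the start.

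**Figure D2:**
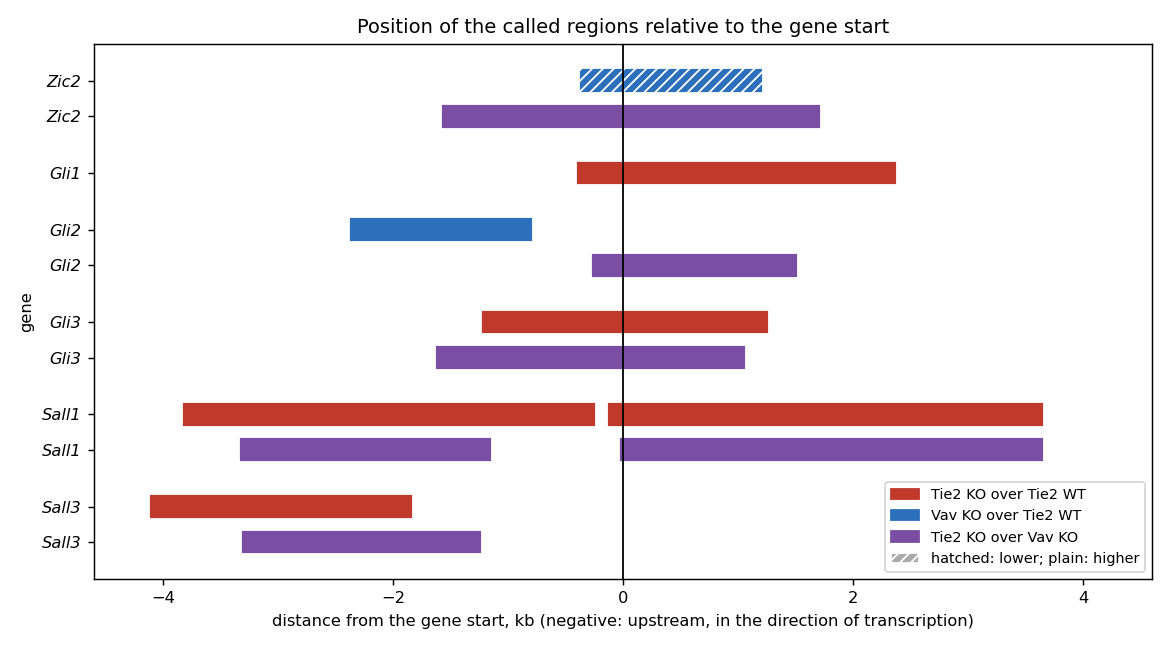
Position of the 13 called regions relative to the gene start of the authors' annotation, in kb along the direction of transcription, coloured by comparison and hatched where lower. Regions at Zic2, Gli1 and Gli3 cover the start in every comparison that has one, and the Sall1 regions lie over the start and upstream of it. The Sall3 regions lie upstream, 1823 bp and 1223 bp from the start.

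Over all comparisons, 8 of the 13 regions covered the gene start and 5 lay upstream, at most 1823 bp away. The regions were wide: widths ran from 1599 to 3799 bp with a median of 2499 bp. Each of the 13 was wider than the median region of its own list, from 71.4% of the regions of the list being narrower at Gli2 in Tie2 KO over Vav KO to 97.4% at the Sall1 start in the same comparison. Among higher regions of Tie2 KO over Tie2 WT the 5 member regions had a median width of 2799 bp and the whole list 1599 bp, and in Tie2 KO over Vav KO the 6 had 2449 bp and the whole list 1299 bp. Of the whole lists of higher regions, 55.6% in Tie2 KO over Tie2 WT and 43.8% in Tie2 KO over Vav KO covered a gene start.

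**Figure D3:**
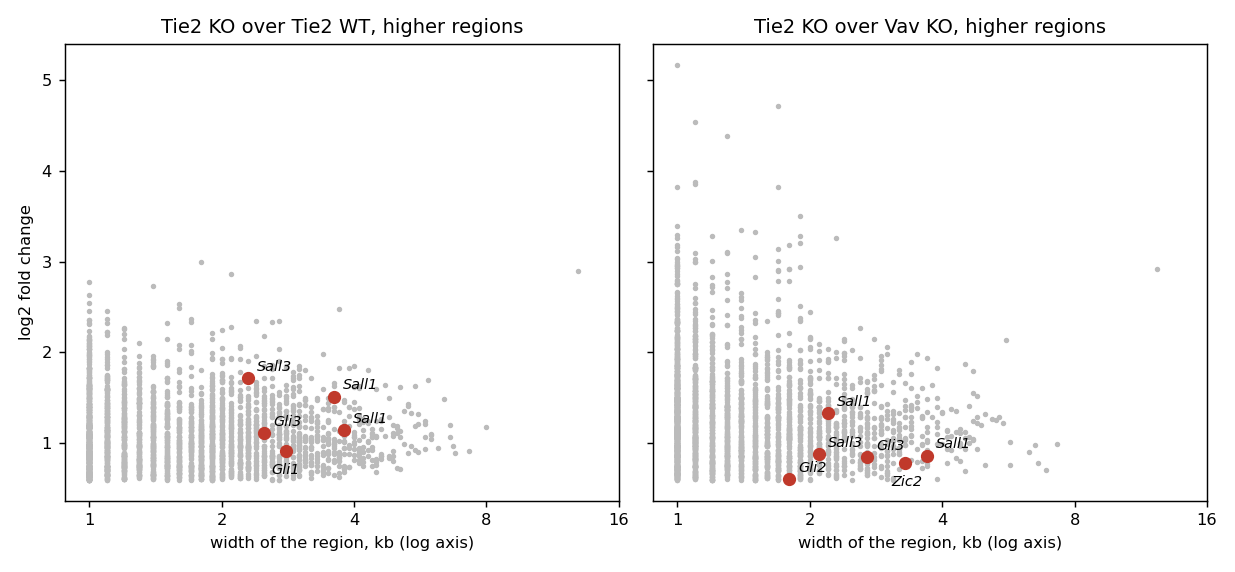
Width in kb (log axis) against log2 fold change from the authors' deposited table for all higher regions (grey) of Tie2 KO over Tie2 WT (left) and Tie2 KO over Vav KO (right), with the regions of the Zic, Gli and Sall genes in red. The red points lie to the right of most grey points, between 1799 and 3799 bp, and in the middle or lower range of fold change except Sall3 at 1.71 and Sall1 at 1.51 on the left.

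The Zic genes lie in pairs in the mouse genome, Zic1 beside Zic4 on chromosome 9 and Zic2 beside Zic5 on chromosome 14. Both regions at Zic2 were also paired with 2610035F20Rik, a long noncoding RNA gene on the other strand whose RefSeq interval ends at 122475199, just before Zic2 begins at 122475384, so the calls at this shared start cannot be assigned to 1 of the genes. A further region, chr14:122477302-122479100, lies inside Zic2 but is paired only with 2610035F20Rik, as the lists pair a region with starts that it covers or lies upstream of. It was higher in Tie2 KO than in Vav KO, with a log2 fold change of 1.2 and an adjusted p of 0.000175 by the authors' deposited table. Within 15000 bp of Zic5, 3 regions paired with the noncoding RNA gene Gm5089 were called higher for Tie2 KO over Tie2 WT, with log2 fold changes of 1.39, 0.99 and 1.28 by the authors' deposited table. The nearest of them ends 3959 bp from Zic5, on the side of its 3′ end. Around Zic1 and Zic4 no listed region lay within the same distance.

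Of 5 relatives outside the 9 genes, 1 had a line. Sall4, a regulator of pluripotent and early embryonic cells, had a region 200 bp upstream of its start, chr2:168767402-168768900, that was higher in Tie2 KO than in Vav KO with a log2 fold change of 2.1 and an adjusted p of 3.94e-06 by the authors' deposited table. This exceeds the fold change at each of the 9 genes in that comparison. Sall2, Glis1, Glis2 and Glis3 had no line in any list.

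Of the CpG content of promoters, the reference table gives 8 windows for 6 of the 9 genes (250 bases before to 50 after the start), and none for Zic2, Gli1 and Sall3. Of these windows, 7 held more CpG than the median of 13 over 21262 promoters of protein-coding genes. The window of Gli3 held 39 CpG, more than 94.2% of all promoters, and that of Gli2 held 28, more than 81.2%. Sall1 has 3 windows with 18, 27 and 39 CpG, the last 2 of which lie wholly inside the called region over the start. Zic1, with no called region, held 31 CpG, more than 86.0% of promoters, while Zic5 held 15 and Zic4 held 8. The Zic4 window starts at 91368722, inside the RefSeq gene, which begins at 91365631. The CpG counts of genes with a line and of those without thus overlapped in these windows. Whether CpG content separates such genes cannot be judged from so few, with Zic2, Gli1 and Sall3 lacking a window. The Gli motif GACCACCCA was in none of the 8 windows on either strand and in 0.179% of all promoters. The Zic core CAGCAGG was also in none, and in 2232 of the 21262 promoters. The Gata motif GATAAG was in 1, the second window of Sall1, and in 6.92% of all promoters. Motifs were searched as written on both strands and do not overlap one another.

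**Figure D4:**
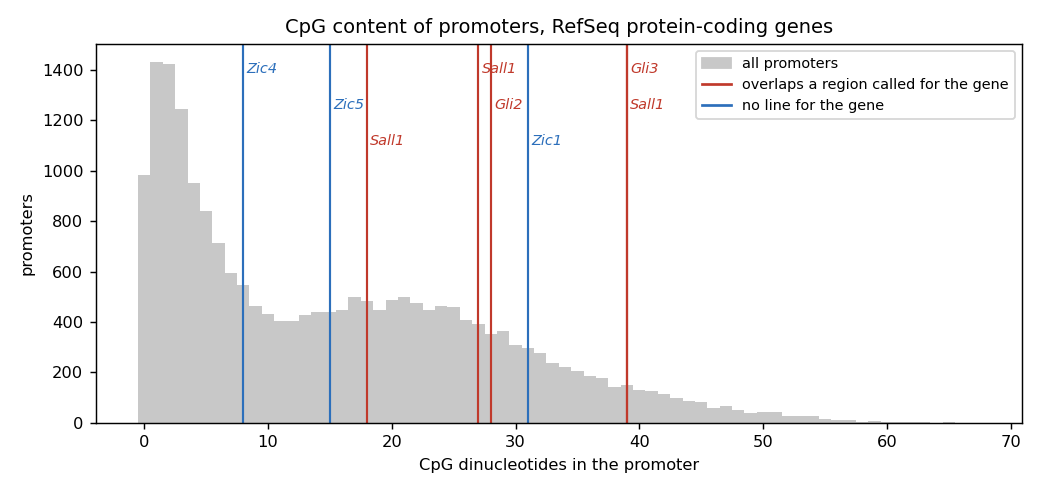
Number of CpG dinucleotides in 21262 promoters of RefSeq protein-coding genes (grey bars), with the 8 windows of Zic, Gli and Sall genes as lines, red where a called region of the gene overlaps the window and blue where the gene has no line. The red lines stand at 18 to 39 CpG and the blue lines at 8, 15 and 31, so the colours overlap.

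Among 32 other Hedgehog pathway genes, higher regions were paired with 13 (40.6%) and lower regions with 0 in Tie2 KO over Tie2 WT. In Tie2 KO over Vav KO 13 (40.6%) were higher and 1 (3.12%) lower. Vav KO over Tie2 WT had 5 (15.6%) as higher and 2 (6.25%) as lower. For comparison, the shares over the 21896 protein-coding genes were 11.5% higher and 2.51% lower in Tie2 KO over Tie2 WT. They were 11.1% and 6.35% in Tie2 KO over Vav KO, and 5.29% and 2.59% in Vav KO over Tie2 WT. Foxf1 and Foxa2 of the 32 Hedgehog pathway genes are also on the lists of mesoderm and endoderm markers given at the end. Of the ligands, Ihh had higher regions in all 3 comparisons, with log2 fold changes of 1.27 in Tie2 KO over Tie2 WT, 1.51 in Vav KO over Tie2 WT and 1.55 in Tie2 KO over Vav KO by the authors' deposited table. The Ihh region of Vav KO over Tie2 WT lies upstream and does not overlap those of the other comparisons, which cover the start. Dhh had 0.91 in Tie2 KO over Tie2 WT and 1.92 in Tie2 KO over Vav KO by the authors' deposited table, and Shh had no line. The co-receptor gene Boc had 1.52 in Tie2 KO over Tie2 WT and 2.38 in Tie2 KO over Vav KO by the authors' deposited table.

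By the authors' deposited table, the transducer gene Smo and the acyltransferase gene Hhat were listed only in Tie2 KO over Vav KO, as higher, with log2 fold changes of 1.65 and 1.81. Their regions lie 96 bp and 4182 bp upstream of the start. Ptch1 and Hhip, which restrain the pathway and are also its targets, had no line. Of 10 genes of proteins that control Gli inside the cell, Evc, Evc2 and Kif7 (30.0%) lay near higher regions in Tie2 KO over Tie2 WT. Their largest log2 fold changes were 0.82, 1.03 and 0.62 by the authors' deposited table, and 11.5% of all protein-coding genes lay near such a region. Evc and Evc2 share the region with 0.82, which was also higher in Vav KO than in Tie2 WT, at 0.95, and Evc2 had 0.85 in Tie2 KO over Vav KO, by the authors' deposited table. Sufu, which holds Gli proteins in the cytoplasm, had a region 3595 bp upstream of its start that was lower in Tie2 KO than in Vav KO, at -1. Gpr161, a ciliary repressor of the pathway, had a region 4765 bp upstream that was lower in Vav KO than in Tie2 WT, at -1.36, by the authors' deposited table.

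Of 10 genes known as Hedgehog targets in embryonic tissues, 7 (70.0%) lay near higher regions in Tie2 KO over Tie2 WT, where 11.5% of all protein-coding genes did. The targets were led by Foxl1 at a log2 fold change of 1.61, Nkx2-2 at 1.28, Hand2 at 1.19 and Nkx6-1 at 1.14 by the authors' deposited table. As many, 7 (70.0%), lay near higher regions in Tie2 KO over Vav KO, where 11.1% of all protein-coding genes did. Here the leading targets were Hand2 at 1.3, Nkx2-2 at 1.23, Nkx6-1 at 1.15 and Foxa2 at 1.05 by the authors' deposited table. The Hand2 region with 1.3 lies upstream and does not overlap the one with 1.19, which covers the start. A Hand2 region over the start had 0.98 in Tie2 KO over Vav KO by the same table. Vav KO over Tie2 WT listed Nkx2-2 as higher, at 1.21, Ccnd1 as higher, at 0.62, and Foxa2 as lower, at -1.53, by the authors' deposited table. That Nkx2-2 region covers the start, while those with 1.28 and 1.23 lie upstream and do not overlap it. Foxa2 had both calls that Zic2 had: lower in Vav KO than in Tie2 WT and higher in Tie2 KO than in Vav KO. Unlike Zic2, it was also called higher for Tie2 KO over Tie2 WT, at 0.82 by the authors' deposited table. That Foxa2 region lies upstream of the start and does not overlap the region lower in Vav KO, which covers the start. The Foxa2 region of Tie2 KO over Vav KO overlaps both.

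Other zinc finger genes of the C2H2 type were counted for comparison. Of 15 genes of embryonic patterning, 8 (53.3%) lay near a higher region in Tie2 KO over Tie2 WT, led by Snai1 at a log2 fold change of 1.96, Bcl11b at 1.41, Fezf1 at 1.24 and Wt1 at 1.19 by the authors' deposited table, and 0 lay near a lower one. Of 15 genes of blood cells, 2 (13.3%) did, Ikzf3 at 1.09 and Bcl11a at 0.74 by the authors' deposited table, against the 11.5% of all protein-coding genes. In Tie2 KO over Vav KO the counts of higher genes were 7 of 15 (46.7%) for patterning and 1 of 15 (6.67%) for blood. The share of all protein-coding genes was 11.1%. The patterning genes were led by Fezf1 and Wt1 at 1.72 each, Insm1 at 1.47 and Bcl11b at 1.24 by the authors' deposited table. The blood gene was Gfi1 at 1.42, while Bcl11a and Ikzf2 were lower, at -0.61 and -0.97, by the authors' deposited table. Vav KO over Tie2 WT listed Snai1 at 1.69 and the blood gene Klf3 at 0.91 as higher, and Hic1 at -1.04 as lower, by the authors' deposited table. The regions of Snai1 with 1.96 and 1.69 do not overlap, and neither do those of Bcl11a with 0.74 and -0.61. The difference between these lists was not tested.

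**Figure D5:**
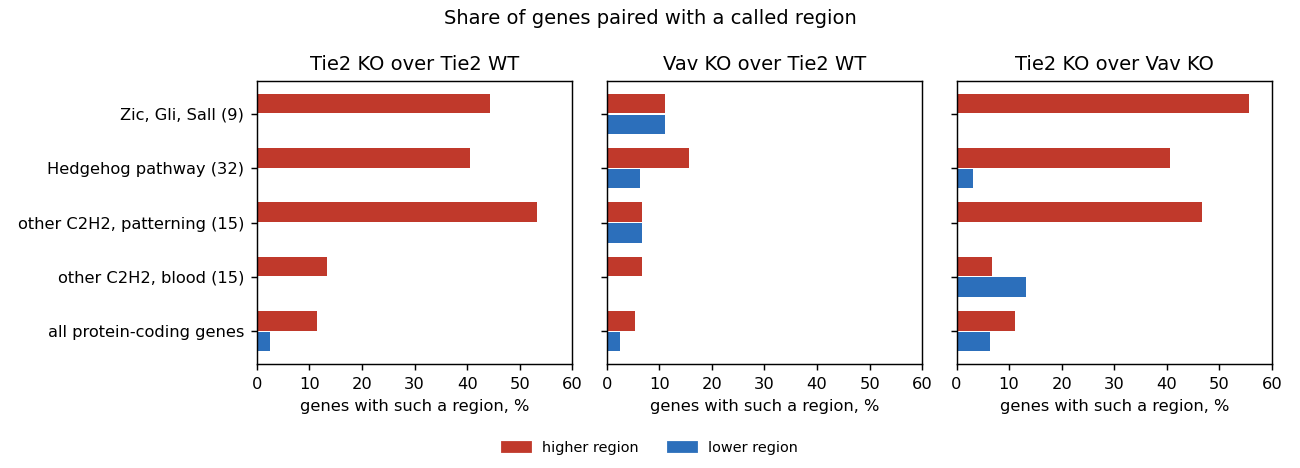
Share of genes, in percent, paired with a higher (red) or lower (blue) region in each comparison, for the 9 Zic, Gli and Sall genes, 32 other Hedgehog pathway genes, 15 other C2H2 genes of patterning, 15 of blood cells and all protein-coding genes. In Tie2 KO over Tie2 WT the first 3 groups stand at 44.4%, 40.6% and 53.3%, blood genes at 13.3% and all genes at 11.5%. The groups were chosen with earlier results of these data known, so their shares are no test.

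The lists hold no accessibility level, so the label of erythro-myeloid progenitors could not be checked against its markers. Of 10 progenitor markers, 0 had a line in Tie2 KO over Tie2 WT, while Csf1r was higher and Gata2 lower in Vav KO than in Tie2 WT. In Tie2 KO over Vav KO, Gata2 was higher, at a log2 fold change of 0.92, and Csf1r lower, at -1.33, by the authors' deposited table. Some markers of other yolk sac cells moved in the same direction as the Gli and Sall genes in Tie2 KO over Tie2 WT. Of 8 mesoderm markers, 4 lay near higher regions, and 4 of 8 endothelial markers did, with Pecam1 near a lower one. Only 1 of 8 endoderm markers did, which is close to the 11.5% of all protein-coding genes. The mesoderm markers were Hand1 at a log2 fold change of 1.59, Tbx20 at 1.4, Pdgfra at 1.17 and Pdgfrb at 0.79, by the authors' deposited table. The endothelial ones were Tek, Erg at 1.52, Flt1 at 0.95 and Cdh5 at 0.84, by the same table. Tek is also the gene of the Tie2 driver, and Tie2 KO carried the Tie2-Cre transgene while Tie2 WT did not. The Tek region was 12899 bp wide, and a part of the transgene in this call cannot be told apart. The part of all these markers in the results above was not tested. In the same order of mesoderm, endothelial and endoderm markers, 4, 3 and 1 of 8 were higher and 0, 0 and 0 lower in Tie2 KO over Vav KO. For Vav KO over Tie2 WT, where the Zic2 region was lower, 1, 0 and 0 of 8 were higher and 1, 0 and 1 lower. The shares of all protein-coding genes there were 5.29% higher and 2.59% lower. The higher marker was Postn at a log2 fold change of 2.22, and the lower ones were Pdgfra at -1.57 and Foxa2 at -1.53, by the authors' deposited table. The part of these markers in the calls at Zic2 and Gli2 was not tested either. Ezh2 itself had no line in any list, so its deletion could not be checked here. Of the driver genes, Tek was called higher for Tie2 KO over Tie2 WT, at a log2 fold change of 2.90, by the authors' deposited table. Vav1 was higher in Vav KO than in Tie2 WT, at 0.81, and lower in Tie2 KO than in Vav KO, at -0.9, by the same table. Both Vav1 regions cover the start. As Vav KO carried the Vav-Cre transgene, a part of the transgene in the Vav1 calls cannot be told apart.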

How the data were processed

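Libraries were made from 500 sorted cells with 14 PCR cycles, per the labels' protocols. Without saying what each did, the submitters' processing notes name the build mm10 and the tools FastQC, Bowtie2, SAMtools 1.3.1, Picard, HOMER 4.10 and MACS2 2.1.2. The test and the regions tested, library scaling, duplicate removal and any shift for the Tn5 cut are not stated there, and depth per sample is unknown.

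The authors' deposited lists give each region, per the file headers, an adjusted p-value, a log2 fold change and other measures, its width and distance to a gene start in bp. In the list names TKO, VKO and TWT were taken to mean Tie2 KO, Vav KO and Tie2 WT. Absolute log2 fold changes start at 0.58 and adjusted p-values end at 0.0479. Coordinates are those of the lists, with both ends included.

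No test was run, since the lists give no value per sample. Lines were selected by symbol and counted beside the 21896 protein-coding genes of a RefSeq table of GRCm38.p6, in which 10669 of 10679 lines found their gene identifier. Promoter sequences are RefSeq's, of the same assembly. Overlap meant at least 1 bp. Python 3.11.15 and pandas 2.3.3 were used, and the overlap, motif and CpG functions were tested on simulated data. Alternatives were an adjusted p of 0.01, an absolute log2 fold change of 1, regions over the gene start, the nearest gene, merging of neighbours, a larger overlap and 1 strand.

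The 9 genes and the gene lists were chosen with earlier results of these data known. Named genes are the 9, those sharing a region with them, and of each list all with a line or, above 5, the 4 with the largest fold change. Neighbours of Zic5 and genes named as having no line were chosen after their values were seen. A search for genes closest to the median pattern of the 9 gave 9 genes tied at a distance of 0, and none is named. Some genes of the lists are not reported here and enter none of their counts.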

Additional observations from a re-analysis of the deposited data

How the results depend on the processing

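Of 23 alternative counts over 8 results, 17 stayed within 1.5 times the reported count and 6 did not. With an absolute log2 fold change of at least 1, the genes near a region in Vav KO over Tie2 WT numbered 0 in place of 2, as did their regions (0 in place of 2). In Tie2 KO over Vav KO the same threshold left 1 gene of 5 and 1 region of 6, upstream of Sall1, because the other fold changes lie below it by construction. In Tie2 KO over Tie2 WT it left 3 of 4 genes. Counting only regions over the gene start left 1 gene of 2 in Vav KO over Tie2 WT, Zic2. Searching motifs on the given strand only left 0 of 1 promoter window. No count turned its direction.

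No paired analysis was possible because the lists hold no value per sample and the groups compared share no replicate numbers. No sample was left out in turn for the same reason, and the depth behind each region is unknown.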

Other observations

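The fold changes of the 3 comparisons do not add up. Where a region was called in all 3 and overlapped, in 136 combinations over all genes, the log2 fold change of Tie2 KO over Tie2 WT minus that of Tie2 KO over Vav KO differed from that of Vav KO over Tie2 WT by a median of 0.905 in absolute size, and by up to 1.58 in 90% of them, from the values of the authors' deposited table. Region edges differ between lists, and only regions past the thresholds in all 3 enter. A value for Sall3 in Vav KO over Tie2 WT, or for Zic2 in Tie2 KO over Tie2 WT, therefore cannot be worked out from the other comparisons, although the difference of 0.83 at Sall3 would lie above the smallest listed fold change of 0.58.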
